A study of Mus musculus with 12 samples.

Results

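Ddit4 and Ddit4l are 2 of the 54356 mouse genes with a transcript in these data. They were chosen by symbol, with earlier results of these data in view: the choice used the near absence of Ddit4l reads in wild type at 3 h and its high level in libraries labelled Chd5-/-. Ddit4 was chosen as its relative. Levels of Ddit4l between genotypes and times are therefore given as a description, with no test.

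The study sequenced RNA from primary neural stem cells of the mouse, with 4 groups of 3 libraries. The groups were wild type and Chd5-/-, each collected 3 h and 48 h into neural differentiation. In all 4 groups the cells had first been kept with the mitogens EGF and FGF2, and differentiation began when that medium gave way to neurobasal medium with B-27. The comparison of genotypes looks for genes whose expression changes when Chd5 is lacking. No separate animals or cultures are named behind the replicate numbers, so p-values measure only the spread between these samples, which may be technical. The mouse line and the deleted part of Chd5, which encodes a chromodomain helicase, are not given.

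DDIT4 (also called REDD1) and DDIT4L (REDD2) are small stress-response proteins that restrain mTORC1, the kinase complex that couples growth factors and nutrients to protein synthesis. They act through the TSC1-TSC2 complex, which switches off RHEB, the small GTPase that activates mTORC1. Ddit4 transcription is known to respond to low oxygen through HIF1A, to amino acid and endoplasmic reticulum stress through ATF4, to p53 and to glucocorticoids.

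The libraries held 14.11 to 18.71 M estimated reads. The cell type label was checked against 10 genes of neural stem cells and radial glia, whose summed level was 4269 to 9102 CPM (counts per M reads of scaled library size), although Prom1 stayed at or under 0.67 CPM. Markers of microglia and blood summed to at most 0.456 CPM. The mean of Chd5 went from 4.04 CPM (wild type) to 6.21 CPM (labelled Chd5-/-) at 3 h and from 6.34 to 4.0 CPM at 48 h, so its level does not show a loss and the genotype is given as labelled. Replicate 1 of wild type at 3 h had 13.2% of its reads on ribosomal protein genes, against 3.02% to 3.72% in the other 11 libraries. Replicate 2 of both genotypes at 48 h kept cell cycle genes high: the mean log2(CPM + 1) of 8 such genes was 7.56 and 7.33 in these 2, while the remaining 4 libraries of that time had 3.56 to 3.67. Results of Ddit4 are given with and without these 3 libraries. So are the counts of the lists of the mTOR network and of known inducers, in part for 3 h only. Most other single genes are given with all 12 libraries only, also where their result rests on these 3.

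Both genes are protein coding. On the mouse build GRCm38, Ddit4 (ENSMUSG00000020108.4) lies on the minus strand of chromosome 10, from 59949669 to 59951834, with 1 annotated transcript of 1755 bases. Ddit4l (ENSMUSG00000046818.7) lies on the plus strand of chromosome 3, from 137621612 to 137628333, with 3 annotated transcripts. The sequences upstream of both starts, from RefSeq (GRCm38.p6), are shown because the 2 genes differed in whether they were on in wild type. They were searched on both strands for letters tied to the known inducers of Ddit4. Capitals mark ACGTG, the core of the hypoxia response element, in Ddit4 and a p53 half-site in Ddit4l.
Ddit4, chr10:59951835-59952020, minus strand: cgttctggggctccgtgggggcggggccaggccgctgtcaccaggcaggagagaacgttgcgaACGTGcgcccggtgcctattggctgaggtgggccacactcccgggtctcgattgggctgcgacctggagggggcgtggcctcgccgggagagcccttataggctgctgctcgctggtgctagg
Ddit4l, chr3:137623422-137623671, plus strand: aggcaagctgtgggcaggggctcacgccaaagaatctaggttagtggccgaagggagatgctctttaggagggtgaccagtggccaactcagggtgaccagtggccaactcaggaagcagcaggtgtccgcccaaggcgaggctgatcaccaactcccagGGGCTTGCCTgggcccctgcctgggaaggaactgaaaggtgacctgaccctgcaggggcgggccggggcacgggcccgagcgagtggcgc
The Ddit4 window stops at the annotated transcript start, which lies 64 bases upstream of the RefSeq start, so 186 bases are shown. The Ddit4l window has 250 bases before the start of Ddit4l-201, its long coding transcript, and lies within the first intron of Ddit4l-203.

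The 186 bases of Ddit4 held ACGTG once, 123 bases before the start, and 13.1% of 27025 gene promoters held it in a window of that length. They also held CCAAT at 2 places and TATAA 28 bases before the start, both on the opposite strand, and 28.8% and 18.0% of promoters held these letters. The 250 bases of Ddit4l held 1 match to the p53 half-site, 90 bases before the start, as did 7.18% of promoters. Neither window held TGATGNAA (the core of ATF4 sites), ACANNNTGT (the glucocorticoid palindrome), GTAAACA (the forkhead site) or the E-box CACGTG. No CCAAT or TATAA was found in the Ddit4l window. The GC box GGGCGG was in both, once in Ddit4 and at 2 places in Ddit4l, and in 30.8% (186 bases) and 32.9% (250 bases) of promoters. The half-site is its own reverse complement in type, so a match on both strands is counted once. The promoter windows behind these shares end at each gene's RefSeq start, while that of Ddit4 ends at its annotated start, further upstream. The shares beside the Ddit4 matches are thus matched in length and not in position. A match is a description of the letters and not evidence of binding.

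Ddit4l was nearly silent in wild type at 3 h and among the more abundant mRNAs in the libraries labelled Chd5-/-. Wild-type replicates 1, 2 and 3 had 0, 0 and 1 reads. The libraries labelled Chd5-/- had 5449, 4895 and 5365 reads, or 304.5, 309.0 and 305.3 CPM (306.3 ± 2.41, SD, n = 3). The 3 libraries labelled Chd5-/- were close together and far above all 3 of wild type. The ratio of the groups was 13920. The 95% exact Poisson interval of the single wild-type read, 2499 to 549900, covers its counting error only and holds the other mean fixed. It is no test, since these levels chose the gene. On the scale of mean log2(CPM + 1), this difference of 8.24 was the largest of the 16043 genes tested. In rank by CPM, 96.6% of those genes lay below Ddit4l in the libraries labelled Chd5-/- and 0.355% in wild type.

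**Figure D1:**
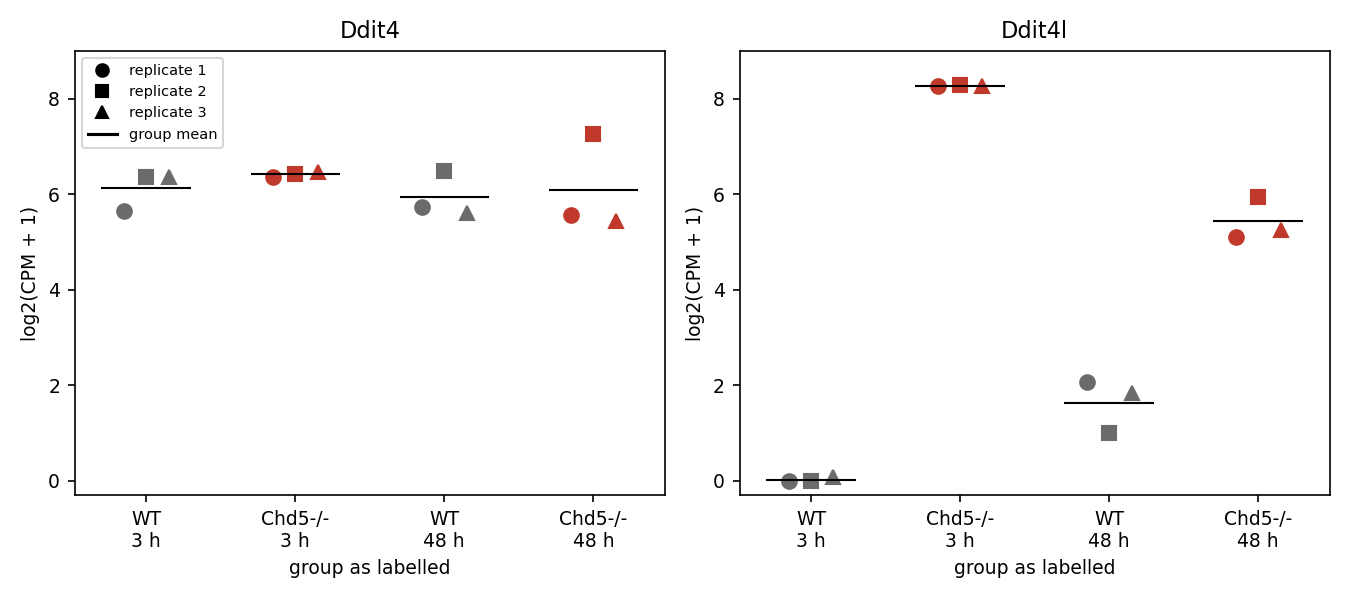
Levels of Ddit4 (left) and Ddit4l (right) as log2(CPM + 1) in each of the 12 libraries, by group as labelled. Grey marks wild type, red the libraries labelled Chd5-/-, the symbol the replicate number and the bar the mean of the plotted values. Ddit4 lies in 1 range in all groups, with replicate 2 highest within both 48 h groups, while the 4 groups of Ddit4l do not overlap.

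At 48 h the genotypes still did not overlap, at levels closer to each other. Wild type had 52, 15 and 45 reads of Ddit4l, or 3.18, 1.01 and 2.56 CPM (2.25 ± 1.11, SD, n = 3). The libraries labelled Chd5-/- had 540, 908 and 586 reads, or 33.4, 60.6 and 37.0 CPM (43.7 ± 14.8, SD, n = 3). The lowest library labelled Chd5-/- was thus above the highest of wild type, and the means differed 19.4-fold. By replicate number the ratios were 10.5, 59.9 and 14.5. Replicate 2, the library with high cell cycle genes, was the lowest of wild type and the highest of those labelled Chd5-/-. The difference of 3.80 in mean log2(CPM + 1) was the fifth of 16043.

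From 3 h to 48 h, Ddit4l went down in the libraries labelled Chd5-/- and up in wild type, a difference that was not tested. In the libraries labelled Chd5-/- its mean was 7.01-fold lower at 48 h than at 3 h, and all 3 libraries at 48 h lay below all 3 at 3 h. Without the 3 libraries that stand apart it was 8.92-fold lower. In wild type the level went from a single read in 3 libraries to 2.25 CPM, a ratio of 102. The 95% exact Poisson interval of that read, 18.3 to 4035, covers its counting error only and holds the 48 h mean fixed. It is no test, as that read was used in the choice. Neither contrast is tested because the 3 h levels of both genotypes were used in the choice. Fewer cells with the transcript and less of it per cell cannot be told apart in bulk libraries.

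Summed levels of most marker lists also differed between the 3 h groups. The 5 neuronal markers summed to 1194 to 1303 CPM where the label was Chd5-/- and 234 to 641 CPM for wild type, a sum that Map2, which encodes a microtubule-associated protein, makes up for the most part. None of the 4 that could be tested passed, in a contrast in which 6.71% of all genes did, and Dcx and Rbfox3 stayed under 1 CPM at 3 h. The 5 oligodendrocyte lineage markers summed to 321 to 352 CPM against 220 to 227 CPM, almost all of it Olig2, with Sox10 at or under 0.06 CPM, and 1 of 4 tested passed, lower. The 8 markers of fibroblasts and mural cells summed to 1.25 to 2.46 CPM against 6.18 to 12.9 CPM, and 2 of 3 tested passed, lower. The 4 astrocyte markers summed to 26.5 to 29.2 CPM against 33.9 to 60.3 CPM, and 1 of 4 passed, lower. The 10 markers of neural stem cells and radial glia summed to 8744 to 9102 CPM against 5483 to 8231 CPM, and none of 9 tested passed, where 2 had an unadjusted p under 0.05. In each of the 5 lists the groups' sums did not overlap. Nor did the sums of cell cycle genes, of endothelium, or of microglia and blood, the last 2 at or under 1.22 CPM at 3 h. Those of skeletal muscle overlapped (0.615 to 0.683 CPM against 0.399 to 1.62 CPM in wild type). The mean log2(CPM + 1) gave another picture for 2 lists. It overlapped for neurons (3.49 to 3.52 against 2.95 to 3.51) and was lower for the oligodendrocyte lineage (2.26 to 2.33 against 2.35 to 2.48). The share of all genes without overlap is not given, so this is a description only. The part of these differences in the level of Ddit4l was not tested.

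Most Ddit4l reads lay on its long coding transcript. Ddit4l-201 (2722 bases) took 91.4%, 91.3% and 91.4% of the gene's reads in the 3 h libraries labelled Chd5-/-. The short coding Ddit4l-202 (446 bases) took 5.99% to 6.29%, and the noncoding Ddit4l-203 (241 bases) took 2.27% to 2.74%. The order of the 3 transcripts was the same in every library with more than 1 read of the gene, although the wild-type shares at 48 h rest on 15 to 52 reads. Estimated abundance per length gives another order, because the effective length of Ddit4l-203 was listed as 17 bases. Its 124 to 139 reads in the 3 h libraries labelled Chd5-/- became 227 to 293 TPM (transcripts per M, scaled for length), above the 65.1 to 69.0 TPM of Ddit4l-201. Levels per length are therefore compared on the main coding transcripts alone.

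**Figure D2:**
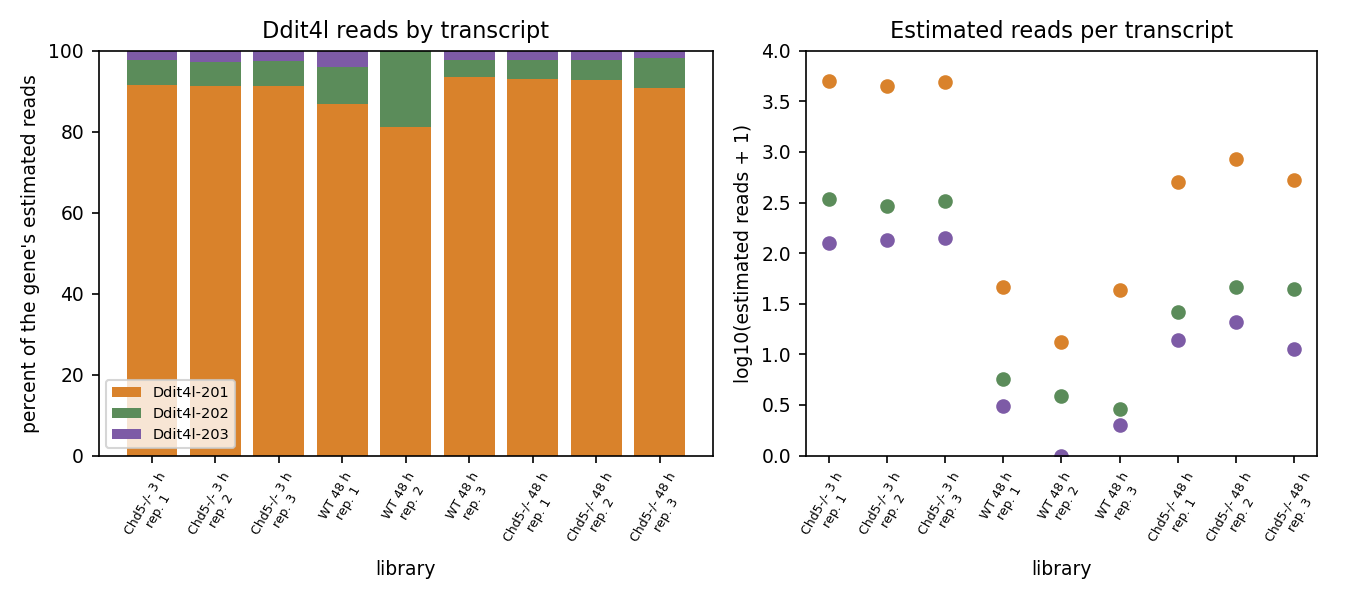
Share of the Ddit4l reads on each of its 3 transcripts (left, stacked bars, percent) and the estimated reads behind them (right, log10(reads + 1)) in the 9 libraries with more than 1 read of the gene. Ddit4l-201 takes 81.1% of the reads or more in each library.

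Ddit4, in contrast to its relative, was on in every library. Its wild-type values at 3 h were 49.4, 80.7 and 81.4 CPM (70.5 ± 18.3, SD, n = 3). Those of the libraries labelled Chd5-/- were 80.8, 85.0 and 87.0 CPM (84.3 ± 3.20, SD, n = 3). The groups overlapped, and the low wild-type value is that of replicate 1, the library rich in ribosomal protein reads. The difference did not pass (log2 ratio 0.26 ± 0.46 SE with 3 libraries per group, adjusted p in edgeR = 0.767), in a contrast in which 6.71% of genes passed. It was 0.057 without the 3 libraries that stand apart (adjusted p = 0.357, with 52.5% of genes called). A 95% interval from limma-voom, 0.613-fold to 2.42-fold, shows how wide a difference the 12 libraries allow.

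The wild-type values of Ddit4 at 48 h were 52.1, 88.7 and 48.0 CPM (62.9 ± 22.4, SD, n = 3). The libraries labelled Chd5-/- gave 46.6, 151.5 and 42.6 CPM (80.2 ± 61.8, SD, n = 3). Replicate 2 was the highest of both groups, and the remaining 4 libraries lay between 42.6 and 52.1 CPM. The groups overlapped and the difference did not pass (log2 ratio 0.35 ± 0.46 SE with 3 libraries per group, adjusted p in edgeR = 0.960, against 2.74% of genes called). Its sign rests on 1 library: without replicate 2 labelled Chd5-/- the value was -0.50 (adjusted p = 0.587), and without all 3 libraries that stand apart -0.15 (adjusted p = 0.0656, with 47.2% of genes called). With the replicate number as a block it was 0.14 (adjusted p = 0.728). The limma-voom interval was 0.557-fold to 2.20-fold.

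Whether Ddit4 changed between 3 h and 48 h depended on which libraries were used. With all 12, the log2 change was -0.17 ± 0.46 SE in wild type (edgeR adjusted p = 0.816, with 22.9% of genes called) and -0.071 ± 0.46 SE in the libraries labelled Chd5-/- (adjusted p = 0.933, where 22.1% of genes passed). Without the 3 libraries that stand apart it fell 1.68-fold in wild type (-0.74 ± 0.057 SE, adjusted p = 5.93e-08, with 76.0% of genes called) and 1.94-fold in the libraries labelled Chd5-/- (-0.95 ± 0.055 SE, adjusted p = 2.14e-09, with 79.0% of genes called). In that set every 48 h library lay below every 3 h library of its genotype, on 2 or 3 libraries per group. The genotype by time interaction did not pass with 12 libraries (0.094 ± 0.65 SE, adjusted p = 0.965, with 0.231% of genes called) or without the 3 (-0.21, adjusted p = 0.0535). Replicate 2 at 48 h, where Ddit4 was high, is also where cell cycle genes were high in both genotypes, and the part of that state in the level of Ddit4 was not tested.

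Per length, which of the genes gave more mRNA differed between groups. In the 3 h libraries labelled Chd5-/-, Ddit4l-201 stood at 65.1, 69.0 and 68.1 TPM and the transcript of Ddit4 at 26.5, 29.7 and 30.0 TPM, a ratio of 2.45, 2.32 and 2.27. In the 48 h libraries labelled Chd5-/- the ratio was 0.463, 0.257 and 0.546. In wild type at 48 h it was 0.0363, 0.00627 and 0.0338. Ddit4l thus exceeded Ddit4 in all 3 libraries of 1 group, and in the other 9 libraries Ddit4 was the higher, also in wild type at 3 h, where the Ddit4 transcript stood at 6.22, 27.3 and 27.5 TPM and Ddit4l-201 at 0.0133 TPM or less.

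**Figure D3:**
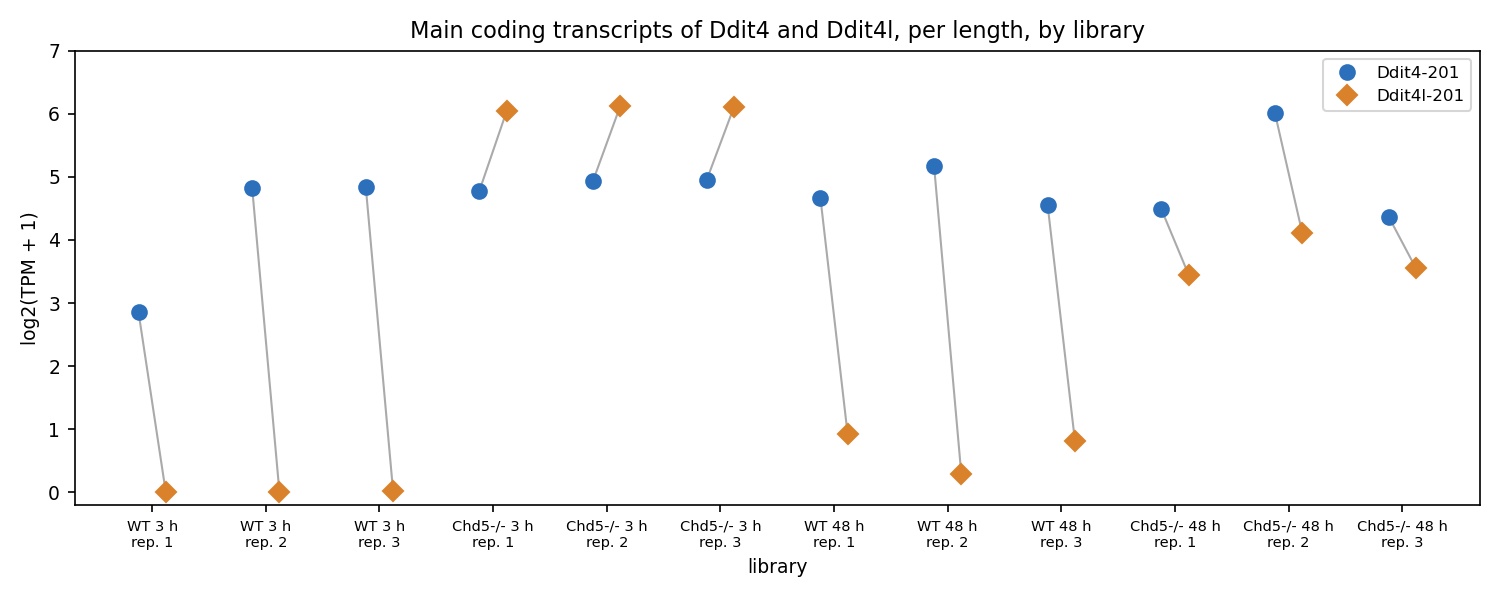
Length-scaled levels, as log2(TPM + 1), of the main coding transcripts of Ddit4 (blue circles) and Ddit4l (Ddit4l-201, orange diamonds) in each library, joined by a grey line. The diamond is above the circle in the 3 libraries labelled Chd5-/- at 3 h and below it in the other 9.

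The machinery on which both proteins act is described through a list of 101 genes of the mTOR network, all of which passed the filter on low counts. At 3 h, 2 were higher and 1 was lower in the libraries labelled Chd5-/- (2.97% of the list, below the 6.71% of all genes), and the median log2 fold change was 0.092 against -0.019 over all genes. Sesn2, a leucine sensor that inhibits mTORC1 through GATOR2, rose from 60.7, 58.1 and 54.8 CPM to 271, 262 and 276 CPM (2.22 ± 0.57 SE, edgeR adjusted p = 0.0438). The groups did not overlap. Maf1, a repressor of RNA polymerase III that mTORC1 phosphorylates, fell from 87.0, 51.3 and 49.6 CPM to 31.6, 26.8 and 28.3 CPM (-1.11 ± 0.26 SE, adjusted p = 0.0288), again without overlap.

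None of the 11 genes of the mTOR complexes, the 5 of the TSC complex and Rheb, or the 13 DDIT4 partners passed at 3 h, where 1, 1 and 3 of them had an unadjusted p under 0.05. Txnip, whose product binds DDIT4 and stabilises it, gave 4.96, 15.5 and 17.4 CPM in the wild-type libraries, and 6.48, 5.24 and 5.24 CPM where Chd5-/- was the label (log2 ratio -1.17 ± 0.50 SE, edgeR adjusted p = 0.190). Without the 3 libraries that stand apart, the Txnip value was -1.54 (edgeR adjusted p = 2.03e-08, with 52.5% of genes called). The 3 calls of the network varied with the libraries used, as did the share of all genes called. None was left without any 1 of the 3 h libraries labelled Chd5-/- (2.52% to 2.66% of all genes called). The same held without replicate 1 or 3 of that label at 48 h (4.59% and 4.70%). Only 1 was left without wild-type replicate 3 at 48 h (4.70%). There were 2 without wild-type replicate 2 or 3 at 3 h (5.30% and 6.06%) or 1 at 48 h (4.81%). There were 5 without wild-type replicate 2 at 48 h (9.24% of all genes) and 8 without wild-type replicate 1 at 3 h (9.78%). The log2 ratio of Sesn2 at 3 h stayed between 2.16 and 2.30 over the 21 alternative settings. Leaving out the 3 libraries that stand apart gave 34 higher and 24 lower (57.4% against 52.5% of all genes).

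At 48 h no gene of the network passed in edgeR, against 2.74% of all genes (4 had an unadjusted p under 0.05, and the median was 0.089). DESeq2 called 2, against 6% of all genes. Sesn2 gave 22.5, 87.8 and 25.2 CPM in the wild-type libraries, and 50.03, 152 and 46.9 CPM where Chd5-/- was the label (log2 ratio 0.88 ± 0.55 SE, edgeR adjusted p = 0.710). Like Ddit4, it was highest in replicate 2 of both genotypes. Without the 3 libraries that stand apart, its value was 1.04 (edgeR adjusted p = 6.16e-08, with 47.2% of genes called). With the replicate number as a block 5 genes of the network passed, among them Sesn2, higher (0.94, adjusted p = 0.0188), while 8.82% of all genes were called. Without wild-type replicate 1 at 3 h 7 passed, while 8.69% of all genes were called. The 9 other libraries without those that stand apart gave 35 higher and 22 lower (56.4% against 47.2% of all genes).

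Between 3 h and 48 h the network moved about as often as other genes. In wild type 14 genes rose and 6 fell (19.8% against 22.9% of all genes), and in the libraries labelled Chd5-/- 17 rose and 6 fell (22.8% against 22.1%). Tsc1, a subunit of the complex through which DDIT4 acts, rose by 0.88 ± 0.22 SE in wild type and 0.78 ± 0.22 SE in the libraries labelled Chd5-/- (edgeR adjusted p = 0.0191 and 0.0273). Tsc2, the GTPase-activating subunit, rose by 0.66 ± 0.18 SE in the libraries labelled Chd5-/- (adjusted p = 0.0243) and had a value of 0.46 ± 0.18 SE in wild type (adjusted p = 0.0880). Rheb, the GTPase they switch off, fell by 0.88 ± 0.22 SE in wild type and by 1.29 ± 0.22 SE in the libraries labelled Chd5-/- (adjusted p = 0.0192 and 0.00311). Txnip rose by 1.82 ± 0.50 SE and 3.85 ± 0.55 SE (adjusted p = 0.0279 and 0.00131). In wild type the call of Tsc1 was lost without wild-type replicate 3 at 48 h, that of Txnip without replicate 1 or 3 at 48 h, and that of Rheb without either of these or replicate 2 or 3 at 3 h. In the libraries labelled Chd5-/-, the calls of Tsc1 and Tsc2 were lost without any 1 of them at 3 h or without replicate 1 or 3 at 48 h. Without the 3 libraries that stand apart, 45 genes rose and 38 fell in wild type (82.2% against 76.0%), and 53 rose and 36 fell in the libraries labelled Chd5-/- (88.1% against 79.0%). With only the groups compared in the fit, or with the replicate number as a block as well, edgeR called none of 14938 genes over time in wild type, so that none of these wild-type calls was left there. At an unadjusted p under 0.05 there were 3649 and 2599 genes in those fits, and DESeq2 on all 12 libraries called 4856.

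**Figure D4:**
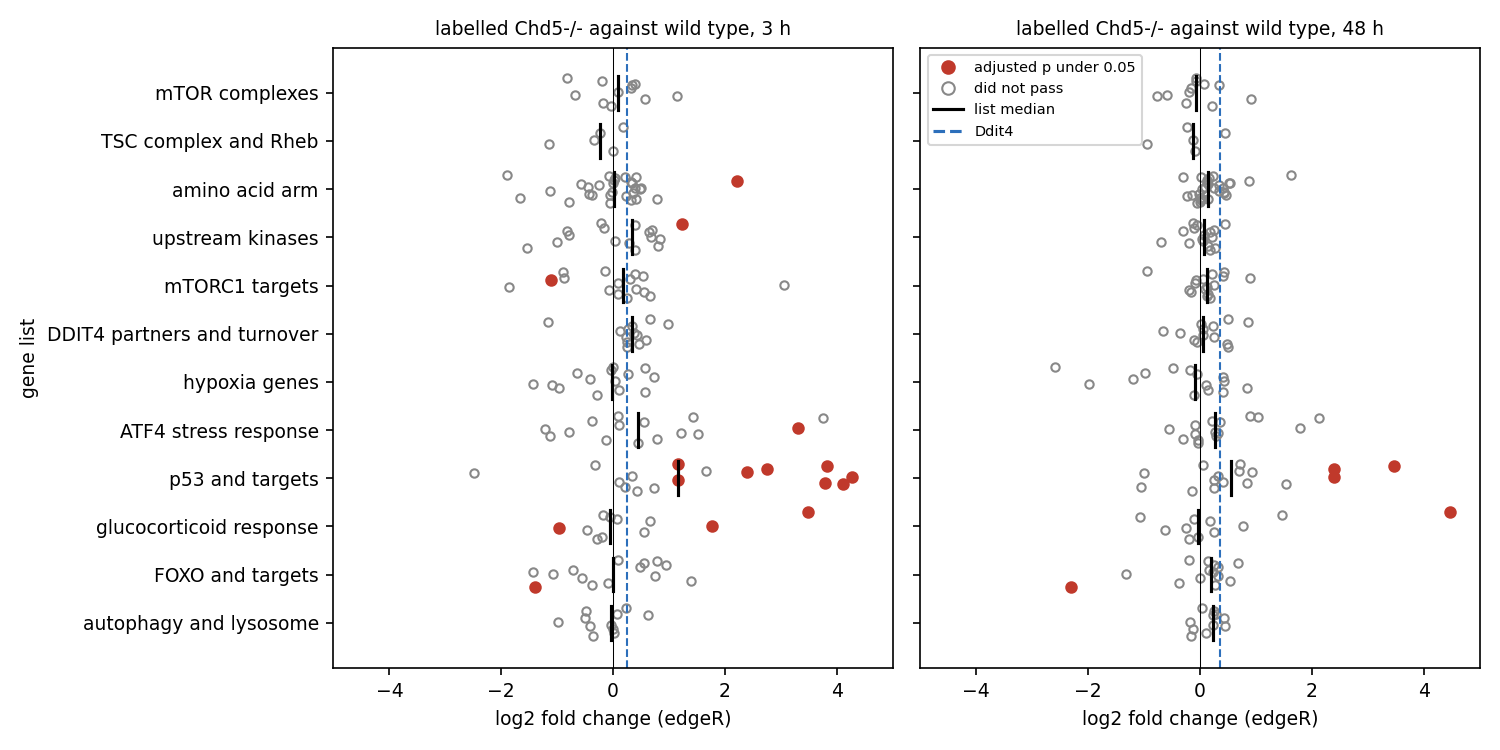
Log2 fold change (edgeR) of each tested gene of the mTOR network and of the inducer lists, libraries labelled Chd5-/- against wild type, at 3 h (left) and 48 h (right). Filled red points passed at an adjusted p under 0.05, open points did not, black bars are list medians and the dashed line is Ddit4. At 3 h, 8 of the 16 tested genes of the p53 list are filled and none of the 14 tested hypoxia genes, where 6.71% of all genes passed.

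The known inducers of Ddit4 are described through 5 further lists. Of 16 tested genes of p53 and its targets, 8 were higher at 3 h in the libraries labelled Chd5-/- and none lower (against 6.71% of all genes, median log2 fold change 1.16). Cdkn1a, the cell cycle inhibitor p21, rose from 61.8, 42.4 and 43.3 CPM to 709, 687 and 691 CPM (3.82 ± 0.29 SE, edgeR adjusted p = 6.37e-05). Ccng1, which encodes cyclin G1, rose by 4.28 ± 0.52 SE (adjusted p = 0.000771), and Zmat3, which encodes an RNA-binding protein, by 2.40 ± 0.26 SE (adjusted p = 0.000440). Mdm2, whose product marks p53 for degradation, rose by 1.16 ± 0.24 SE (adjusted p = 0.0151), a call lost without any 1 of the 3 h libraries labelled Chd5-/-. Trp53 itself had a value of -0.33 ± 0.21 SE (adjusted p = 0.384). The count was 5 without any 1 of the 3 h libraries labelled Chd5-/- (2.52% to 2.66% of all genes called) and 10 without wild-type replicate 1 at 3 h (9.78%). It was 15 without the 3 libraries that stand apart (93.8% against 52.5% of all genes).

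At 48 h the p53 list had 3 genes higher and none lower (18.8% against 2.74% of all genes), namely Cdkn1a (3.46 ± 0.29 SE, edgeR adjusted p = 0.000162), Ccng1 (2.40 ± 0.48 SE, adjusted p = 0.0232) and Phlda3 (2.40 ± 0.46 SE, adjusted p = 0.0183), an inhibitor of AKT. The count was 1 without replicate 1 or 3 of either genotype at 48 h (1.1% to 1.26% of all genes called). It was 2 without wild-type replicate 2 at 48 h (3.21%). It was 7 without wild-type replicate 1 at 3 h (8.69%) or with the replicate number as a block (8.82%). It was 14 without the 3 libraries that stand apart (87.5% against 47.2% of all genes). The block added Eda2r, Zmat3 and Aen, higher, and Plk2, lower. From 3 h to 48 h in the libraries labelled Chd5-/-, 6 genes of this list fell and 1 rose (43.8% against 22.1% of all genes). Cdkn1a was among those that fell, by 2.49 ± 0.28 SE (adjusted p = 0.000425). In wild type Cdkn1a fell as well, by 2.13 ± 0.28 SE (adjusted p = 0.00187), in a list with 1 gene higher and 1 lower there (12.5% against 22.9% of all genes). That call was lost with only the groups compared in the fit (adjusted p = 0.0825) and with the replicate block (adjusted p = 0.197). In the libraries labelled Chd5-/-, without the 3 that stand apart among all 12, 2 genes of the list rose over time and 13 fell, against 79.0% of all genes called. The part of p53 in the level of Ddit4 or Ddit4l was not tested.

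Of the 15 genes of the ATF4 stress response, 1 was higher at 3 h (6.67% against 6.71% of all genes, median 0.44). It was Slc7a11, the cystine transporter, which went from 4.66, 20.3 and 21.6 CPM (wild type) to 141, 156 and 163 CPM (log2 ratio 3.30 ± 0.66 SE, edgeR adjusted p = 0.0137). Chac1, a glutathione-degrading enzyme, stood at 4.66, 3.19 and 3.61 CPM against 51.1, 49.4 and 53.7 CPM, without overlap, and did not pass (3.75 ± 1.57 SE, adjusted p = 0.180). At 48 h none passed, and 1 had an unadjusted p under 0.05. With the replicate block Slc7a11 passed there, higher (1.86, adjusted p = 0.00702). Trib3, a pseudokinase induced through ATF4, reached 35.3 CPM (wild type) and 76.2 CPM (labelled Chd5-/-) in replicate 2 at 48 h, with 0.63 to 1.31 CPM in the other 4. Ddit4 too was highest in replicate 2 of both genotypes at 48 h, as were Vegfa and Adm of the hypoxia list described next. In the 9 libraries without those that stand apart, 10 genes were higher and 4 lower at 3 h (93.3% against 52.5% of all genes), and 5 and 5 at 48 h (66.7% against 47.2%).

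No hypoxia gene of 14 tested passed at 3 h or at 48 h (2 and 2 had an unadjusted p under 0.05, medians -0.020 and -0.083, against 6.71% and 2.74% of all genes called). With the replicate block 2 passed at 48 h, Adm, a vasodilator peptide, lower (-2.91, adjusted p = 0.0171), and Epas1, the HIF-2 alpha subunit, higher (0.84, adjusted p = 0.0392). Hif1a, the oxygen-regulated transcription factor subunit, had a value of 0.74 ± 0.55 SE at 3 h (edgeR adjusted p = 0.445). Without the 3 libraries that stand apart, it was 0.24 (edgeR adjusted p = 6.09e-05, with 52.5% of genes called). Vegfa, of the same list, reached 857 CPM (wild type) and 600 CPM (labelled Chd5-/-) in replicate 2 at 48 h. The other libraries of that time had 37.9 to 49.8 CPM. Adm was highest in replicate 2 of both genotypes at 48 h as well, while Epas1 was lowest there. Without the 3 libraries that stand apart, 47.2% of genes passed at 48 h. The values there were -3.34 for Adm and 0.80 for Epas1 (edgeR adjusted p = 2.18e-12 and 2.04e-05). The part of hypoxia or of the ATF4 response in the level of Ddit4 was not tested. Of 11 glucocorticoid response genes, 2 were higher and 1 lower at 3 h (27.3% against 6.71% of all genes). Klf9, a transcription factor, rose by 1.77 ± 0.46 SE (adjusted p = 0.0439), and Cdkn1c, a cell cycle inhibitor, did so at a level of at most 1.02 CPM (3.49 ± 0.76 SE, adjusted p = 0.0214). Tsc22d3, a common readout of the receptor, fell by 0.97 ± 0.22 SE (adjusted p = 0.0282). Cdkn1c alone of that list was higher at 48 h (4.47 ± 0.88 SE, adjusted p = 0.0223). These calls at 3 h were each lost without any 1 of the 3 h libraries labelled Chd5-/-, and that of Cdkn1c at 48 h without any 1 wild-type library of that time, replicate 1 or 3 labelled Chd5-/- at 48 h or replicate 1 of that label at 3 h. Foxo6 was the 1 gene of 14 on the FOXO list to pass, lower at 3 h (-1.40 ± 0.36 SE, adjusted p = 0.0419) and at 48 h (-2.30 ± 0.37 SE, adjusted p = 0.00850). Its call at 3 h was lost without any 1 library except replicate 2 of either genotype at 48 h, and that at 48 h without replicate 3 labelled Chd5-/- at 48 h. Without the 3 libraries that stand apart, 10 of 14 hypoxia, 10 of 11 glucocorticoid and 12 of 14 FOXO genes passed at 3 h, in both directions, against 52.5% of all genes. With the replicate block at 48 h the calls were Klf9 (0.75, adjusted p = 0.0263) and Mt1 (1.59, adjusted p = 0.0125), both higher, on the glucocorticoid list, where Cdkn1c was under the filter on low counts, and Foxo1 (0.67, adjusted p = 0.0463), higher, and Fbxo32 (-1.24, adjusted p = 0.0148), lower, beside Foxo6 on the FOXO list.

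Of 11145 genes with at least 5 CPM in their highest group, those whose log2(CPM + 1) followed Ddit4l most closely over the 12 libraries were Ank3 (Pearson r = 0.992), Smim20 (0.990), Adgrv1 (0.989), Nkx2-2 (0.987) and St3gal6 (0.987). Genes with placeholder symbols, genes encoded in mitochondria and pseudogenes were left out of this ranking and of that for Ddit4. Ank3, which encodes the scaffold ankyrin-G, averaged 0.254 CPM (wild type) and 96.8 CPM (labelled Chd5-/-) at 3 h, and 0.832 and 19.8 CPM at 48 h. Nkx2-2, a homeodomain transcription factor of the ventral neural tube, had no reads in wild type at 3 h and 31.7, 31.1 and 35.5 CPM in the libraries labelled Chd5-/-. St3gal6, a sialyltransferase, was on in wild type as well, at 3.80 CPM at 3 h. All 5 shared with Ddit4l a mean highest in the libraries labelled Chd5-/- at 3 h and next highest in those at 48 h. They were picked for their likeness over these same libraries, so the shared order is no separate result.

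Ddit4 was followed most closely by Olfm2 (r = 0.959), Herc6 (0.947), Hip1 (0.941), Cth (0.939) and Spry4 (0.936). Cth, an enzyme that makes cysteine from cystathionine, reached 13.6 CPM (wild type) and 18.8 CPM (labelled Chd5-/-) in replicate 2 at 48 h, against 1.55 to 2.61 CPM in the other 4 libraries of that time. Spry4, a feedback inhibitor of receptor tyrosine kinase signalling, stood at 194 and 264 CPM in those 2 libraries and at 15.6 to 26.5 CPM in the others. Each of the 5 was highest in replicate 2 within both 48 h groups, as Ddit4 was, and these 5 too were picked for such likeness. The correlation of Ddit4 with Ddit4l was 0.265. These values describe 12 libraries that share groups, and they carry no test.

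The tested genes nearest to Ddit4l were Emcn (189.4 kb) and Ppp3ca (683.9 kb) before it and Gm21962 (43.2 kb) and H2afz (236.2 kb) after it, and none passed between genotypes at 3 h or 48 h. Emcn stayed at or under 1.72 CPM in all libraries and Gm21962 at or under 1.70 CPM. Ppp3ca, the catalytic subunit of calcineurin, gave 155, 233 and 242 CPM in wild type at 3 h, and 305, 313 and 319 CPM under the label Chd5-/- (log2 ratio 0.57 ± 0.24 SE, edgeR adjusted p = 0.179), without overlap. It fell from 3 h to 48 h in both genotypes, by 1.18 ± 0.24 SE in wild type and 1.70 ± 0.24 SE in the libraries labelled Chd5-/- (edgeR adjusted p = 0.00891 and 0.00135). H2afz, which encodes the histone variant H2A.Z, fell in the libraries labelled Chd5-/- (-2.27 ± 0.72 SE, adjusted p = 0.0448) and at 48 h was highest in replicate 2 of both genotypes. This call was lost without wild-type replicate 2 or 3 at 3 h, any 1 of the 3 h libraries labelled Chd5-/-, or replicate 1 or 3 of that label at 48 h. Of the genes next to Ddit4, Dnajb12 (50.4 kb) on 1 side and Anapc16 (35.6 kb) and Ascc1 (51.0 kb) on the other passed in none of the 4 contrasts.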

How the data were processed

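Stranded mRNA libraries (TruSeq) were prepared, per the labels' protocols, and quantified with Salmon, per the submitters' processing notes. Salmon's version, settings and index were not given in the sources used here. Per the file headers, the deposited tables hold estimated counts and TPM for 140658 transcripts. Of these, 140137 matched GENCODE M21 (GRCm38), which need not be the index used, and 521, with 0.135% to 0.181% of the reads, were left out. The deposited estimated counts were summed per gene and rounded to whole numbers. The authors' TPM values served to compare the main coding transcripts of both genes and to describe Ddit4l-203. They also weighted the effective length of each gene in the alternative fit with an offset for transcript length.

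Genes passed filterByExpr (at least 10 reads, total at least 15). Counts were scaled by TMM and fitted with 1 mean per group over all 12 libraries in edgeR 4.0.16 (R 4.3.3). Two-sided quasi-likelihood F tests were adjusted by Benjamini-Hochberg over 16043 genes, with a threshold of 0.05. The SE is the absolute log2 fold change over the square root of F. The procedure was tested on simulated data. Intervals for Ddit4 are from limma-voom (limma 3.58.1). DESeq2 1.42.0 and the other alternatives appear in the closing section.

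The members and lists were chosen with earlier results of these data known, as were the 3 libraries left out as standing apart. Genes were named if they were members, fixed pathway genes or among the 6 smallest unadjusted p-values of a list in a genotype contrast, the 5 most correlated genes, or the 2 nearest tested genes on each side, and 2 genes that this rule names are not reported here. Genes whose 48 h call changed with the replicate block were named after their values were seen. Same-numbered libraries were checked for shared deviations from the group means. At 48 h these correlated at 0.559, 0.736 and 0.562, above a preset minimum of 0.1, and blocked values are given there for that reason alone. In other contrasts the block is an alternative fit and not a pairing. Numbers 1 and 3 correlated as closely across genotypes (0.596 and 0.584), so the data set replicate 2 apart and do not tie 1 to 1 or 3 to 3. The correlations were 0.0535 to 0.149 between genotypes at 3 h, where only number 1 was above the minimum. They were -0.0115 to 0.0226 between times. No pairing was therefore taken elsewhere.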

Additional observations from a re-analysis of the deposited data

Results flagged for a closer look

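Ddit4l moved in opposite directions over time in the 2 genotypes. From 3 h to 48 h its mean log2(CPM + 1) changed by 1.61 in wild type, where all 3 libraries at 48 h lay above all 3 at 3 h, and by -2.83 in the libraries labelled Chd5-/-, where all 3 lay below. The difference between these changes was not tested, because the levels at 3 h were used to choose the gene.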

How the results depend on the processing

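The mean of Ddit4l in the libraries labelled Chd5-/- at 3 h, 306.3 CPM with a narrow SD, was 303.6 CPM with RLE size factors, 313.8 without the filter, 303.4 with the stricter filter, 324.3 without the 3 libraries that stand apart, and 307.4 to 309.9 with 1 library left out.

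For Ddit4, leaving out those 3 libraries turned the 48 h genotype difference to -0.15 and the interaction to -0.21, and brought the time changes of -0.74 in wild type and -0.95 in the libraries labelled Chd5-/- past the threshold. With 1 library left out, the 48 h difference ranged from -0.50 to 0.68, the time change in the libraries labelled Chd5-/- from -0.93 to 0.23 and the interaction from -0.77 to 0.42. The interaction was also -0.14 with limma-voom and -0.076 with the replicate block; the cause was not tested. The genotype difference at 3 h stayed between 0.057 and 0.38 and never passed.

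The mTOR network count at 3 h was 1 without the filter (2.96% of all genes called), 9 with DESeq2 (13.6%) and 58 without the 3 libraries (52.5%). It was 0 with the replicate block (which called no gene of all tested) and 0 to 8 with 1 library left out (2.52% to 9.78% of all genes). At 48 h it was 2 with DESeq2 (6% of all genes), 5 with the replicate block (8.82%) and 57 without the 3 libraries (47.2%). With 1 library left out it was 0 to 7 (1.1% to 8.69% of all genes). The block changed no call of Ddit4. With an offset for transcript length, Tsc2 in wild type turned to -0.79 over time and Aen to -0.018 between genotypes at 48 h, an offset that reads the effective length in each library. A single read of Ddit4l in wild type at 3 h limits the precision of its ratio there.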
